A study of Drosophila melanogaster with 2 samples.

Results

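The genes examined were 41 Drosophila melanogaster genes with known parts in making neuroblasts, neurons and glia. They were taken from a list of neuroblast temporal and identity factors, proneural genes, asymmetric division genes, neuronal RNA-binding protein genes and glia genes, and all 41 were found by symbol among 13968 annotated protein-coding genes. Binding came from chromatin immunoprecipitation followed by sequencing (ChIP-seq) on whole embryos of 0 to 24 h that carried danr fused to eGFP, a green fluorescent protein, which was pulled down through the GFP tag. The series holds 1 group of 2 biological replicates of this danr-GFP strain, with no second genotype, stage or treatment, and control libraries were not analysed here. Which regulatory sequences drive the fusion is not given in the sources used here. Embryos were whole organisms, so a signal in few neural cells and a weak signal in many cells cannot be told apart.

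Neuroblasts, the stem cells of the fly nervous system, are singled out by proneural factors, divide asymmetrically to renew themselves and to make a smaller daughter, and pass through a series of temporal factors (hb, then Kr, nub and pdm2, cas and grh in the embryo) that set which neurons are made. Daughters then become neurons, marked by elav-type RNA-binding proteins, or glia, set by gcm and repo. The gene danr (distal antenna-related) and its paralog dan encode nuclear proteins with a pipsqueak-type DNA-binding domain, and dan is known from embryonic neuroblasts, where it is linked to the time during which hb can still be switched on.

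The DNA at 7 of the bound sites is shown first: the strongest sites near a start site (elav, moody, brat, numb and Gs2) and the strongest site of chinmo and of fru, which held 3 regions each. Each window is 101 bases centred on the summit, the base of highest enrichment, in dm6, written 5′ to 3′ on the strand of the gene. Sequence is from the RefSeq copy of the same assembly. Capitals mark matches, on either strand, to the 9 motifs searched: the TATA box core with the letters TATAAA, TATCGATA (site of the replication-related factor DREF), GAGAG (site of the GAGA factor), TAATTA (homeodomain core), ACAAT (Sox core), an E-box with the letters CAGCTG, an E-box with CAGGTG, an E-box with CATATG, and the A tract AAAAAA. No motif is contained in another.
elav, chrX:523453-523553, minus strand: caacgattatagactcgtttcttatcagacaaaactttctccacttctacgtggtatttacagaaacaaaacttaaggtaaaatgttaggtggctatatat
moody, chrX:2050237-2050337, minus strand: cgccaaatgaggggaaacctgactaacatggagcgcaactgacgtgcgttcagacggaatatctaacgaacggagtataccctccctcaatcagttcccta
brat, chr2L:19165125-19165225, plus strand: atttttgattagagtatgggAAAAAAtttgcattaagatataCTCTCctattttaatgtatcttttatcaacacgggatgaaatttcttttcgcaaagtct
numb, chr2L:9449583-9449683, plus strand: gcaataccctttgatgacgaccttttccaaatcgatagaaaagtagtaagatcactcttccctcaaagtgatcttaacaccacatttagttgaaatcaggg
Gs2, chrX:11423366-11423466, plus strand: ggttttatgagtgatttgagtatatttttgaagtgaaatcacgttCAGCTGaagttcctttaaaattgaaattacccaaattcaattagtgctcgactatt
chinmo, chr2L:1649678-1649778, plus strand: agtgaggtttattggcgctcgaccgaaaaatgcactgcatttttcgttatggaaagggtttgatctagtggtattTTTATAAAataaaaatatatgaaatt
fru, chr3R:18508477-18508577, minus strand: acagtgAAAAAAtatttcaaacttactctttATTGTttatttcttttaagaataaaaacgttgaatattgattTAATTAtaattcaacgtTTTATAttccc
The windows at elav, moody and numb held none of the 9 motifs. The window at brat held GAGAG and the A tract, that at Gs2 held CAGCTG, that at chinmo held TATAAA on both strands, overlapping, and the fru window held the TATA box core, the homeodomain core, the Sox core and the A tract.

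Of the 41 genes, 7 had a summit within 1000 bp of an annotated start site in the thresholded list of the whole series: elav, Rbp9, moody, Gs2, numb, brat and Imp. That is 17.1%, against 13.4% of all protein-coding genes. No score in the thresholded list is under 830, equal to an irreproducible discovery rate (IDR) of 0.01; the IDR is low for peaks that are ranked alike when peaks are called on separate sets of reads. All 7 were neuronal, glial, asymmetric division or temporal genes, and none of the 9 neuroblast identity genes, 3 proneural genes or 6 differentiation genes was among them. In each of the 7 the start site nearest to a counted summit was the gene's own, and under that stricter rule the count was again 7, against 9.39% of all protein-coding genes.

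Whether the share lay above or below that of all genes depended on how start sites were counted. These genes have more annotated start sites than most: 61% of the 41 have 2 or more, against 26.5% of all protein-coding genes. With the outermost start site alone, 3 genes were counted (7.32%, against 11.8% of all), namely elav, moody and Gs2. With any start site but a limit of 500 bp, 4 were counted (9.76%, against 11.2% of all), namely elav, moody, numb and Imp.

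From 5 kb upstream to the gene end, 13 of the 41 genes (31.7%) held a summit, against 24.2% of all protein-coding genes. The 6 genes added were chinmo, grh, insc, nerfin-1, fru and loco. From 2 kb upstream it was 12 genes (29.3%), against 18.5%, and in the transcribed body alone 11 (26.8%), against 8.38%. The 41 genes are long, with a median of 10.1 kb (0.917 to 131 kb) against 2.16 kb over all, and long genes hold more summits. Among genes of at least 20 kb the share was 6 of 15 (40%), against 48.7% of all such genes, and among shorter genes 7 of 26 (26.9%), against 22.3%. Counted per length, the windows held 21 summits in 1.06 Mb, or 19.8 per Mb, against 22.6 per Mb over the windows of all protein-coding genes. In transcribed bodies alone the density was 17.5 per Mb, against 17.4. In the list of replicate 1 alone 8 genes (19.5%) held a summit in the window, against 16.7% of all protein-coding genes. The density there was 9.43 summits per Mb, against 14.2 per Mb over all protein-coding genes. In that of replicate 2 alone it was 11 genes (26.8%), against 16.4%, and 10.4 per Mb, against 13.3 per Mb. In density, the gap below all genes was thus wider in the list of replicate 1 than in the series list. By share of genes, the 41 lay above all genes in each of these lists.

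**Figure D1:**
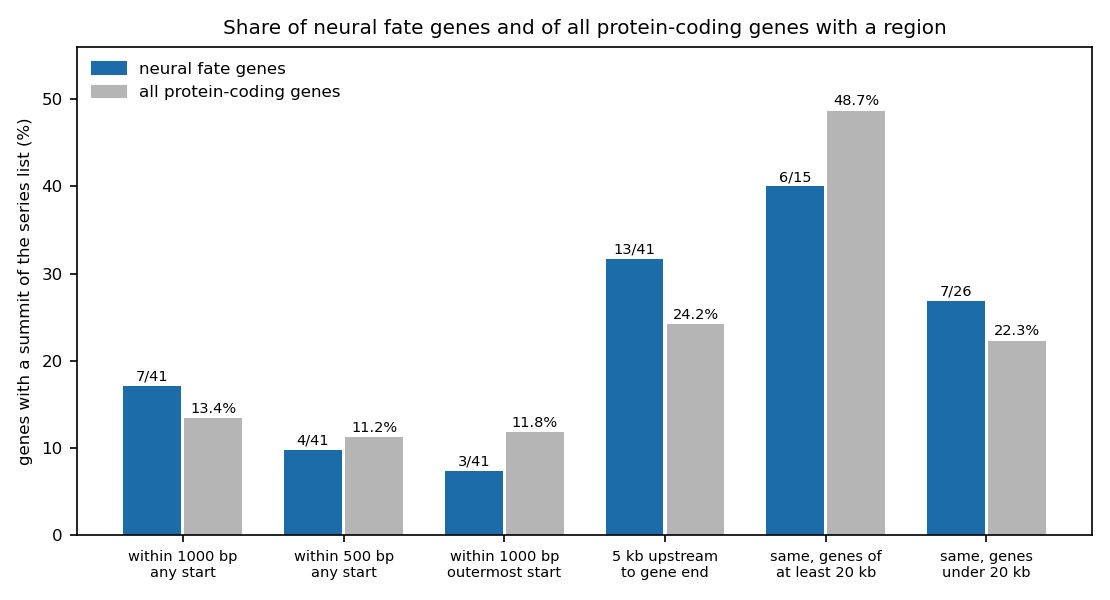
Percentage of genes with a summit of the series list under 6 rules (left to right), for the 41 neural fate genes (blue, with the count) and for all protein-coding genes (grey, with the percentage). The blue bar is above the grey one within 1000 bp of any start site (17.1% and 13.4%) and below it within 1000 bp of the outermost start site (7.32% and 11.8%).

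Of the 8 temporal genes, 3 held a region in the wide window (chinmo, grh and Imp), where 24.2% of all protein-coding genes held one. All 3 are longer than 20 kb, and 48.7% of all protein-coding genes of at least 20 kb held one. The genes hb, nub, pdm2, cas and Syp held none, and nub, pdm2 and Syp are also of that length. At hb (FBgn0001180), the first temporal factor, the strongest ranked peak near a start site reached 25.1 in replicate 1 and 14.8 in replicate 2 in signal, which is the authors' enrichment value at a peak. The scores there, 207 and 61, were below the limit of 830. The nearest region of the series list lay 17854 bp from a start site of hb. At pdm2 and nub, which encode POU-domain factors, the highest signals in replicate 1 were 12.9 and 21.3, and replicate 2 had no ranked peak within 1000 bp of a start site of either.

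The region in grh, which encodes the last factor of the embryonic series, was among the stronger ones. Its summit lay in an intron, 2066 bp downstream of a start site, on 2R from 17804761 to 17805104. The signal was 82.7 in replicate 1, 74.3 in replicate 2 and 160 in the series list, and the score was 1000 in all 3 lists. A further intronic grh region, from 17807494 to 17807837, was in the conservative list, which is a second thresholded list that the authors made from both replicates. It had a signal of 57.1 and a score of 879 there, but a score of 588 in the ranked list behind the series list.

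The BTB zinc finger gene chinmo, which marks early-born neurons, held 3 regions, more than any other temporal gene. A close pair lay upstream of the gene in intergenic sequence on 2L, at 1530 bp (1649556 to 1649899) and 1970 bp (1649116 to 1649459) from its start site. The nearer of them, whose sequence is shown above, reached 75.7 in replicate 1 and 66.5 in replicate 2, scoring 1000 in each. The farther had similar signals of 50.4 and 49.5 but scored 1000 in replicate 1 and 28 in replicate 2. The third, in an intron 4758 bp downstream, had a signal of 30.6 in replicate 1 and no ranked peak in replicate 2. The thresholded list of replicate 1 held another, 2430 bp upstream of chinmo and nearer to the start of lncRNA:CR45695. Its signal was 42.1 and its score 935 in replicate 1, with 10.4 and 108 in replicate 2.

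The RNA-binding protein gene Imp, high in young neuroblasts, had weak regions, and its opposite in time, Syp, had none. The Imp region by a start site (X from 10822926 to 10823474) measured 31.4 in replicate 1 and 31.7 in replicate 2, with scores of 394 and 653. It passed the limit in the series list (54.1, score 987) and in the conservative list but in neither replicate's own list. A second Imp region lay in an intron 4157 bp from a start site, measuring 33.1 in replicate 1 and 20.7 in replicate 2. At Syp the highest signal near a start site was 11.4 in replicate 1 and 17.2 in replicate 2.

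The 9 identity genes (dpn, wor, esg, ase, klu, D, SoxN, vnd and ind, most of them transcription factors of the stem cell state or of the neural columns) and the 3 proneural genes (ac, sc and l(1)sc, bHLH factors that start neural fate) had 0 summits in windows of 126 kb in all. Over all protein-coding genes there were 22.6 summits per Mb, and 22.3% of genes under 20 kb held one. Only klu, at 28.0 kb, is longer than that. Whether 0 lies below these rates was not tested. The count of 0 depends on where the windows end. The closest summits outside them lay 3204 bp from a start site of D (signal 61.2) and 5127 bp from that of dpn (61.3). In the ranked list behind the series list, ase, a bHLH gene of neuroblasts, had a peak with a score of 788 and a signal of 44.4 at 2806 bp from its start site. The zinc finger gene klu had one with a score of 713 and a signal of 44.6 at 125 bp. In the replicates the klu peak measured 24.2 and 18.3. At ac neither replicate's ranked list nor the one behind the series list held a peak within 1000 bp of the start site. At sc replicate 1 alone of these lists did, with a signal of 13.2. At dpn, a bHLH repressor of the stem cell state, replicate 1 had 23.0 and replicate 2 had 2.78. The dpn values are thus far apart, and none of these genes passed in either.

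**Figure D2:**
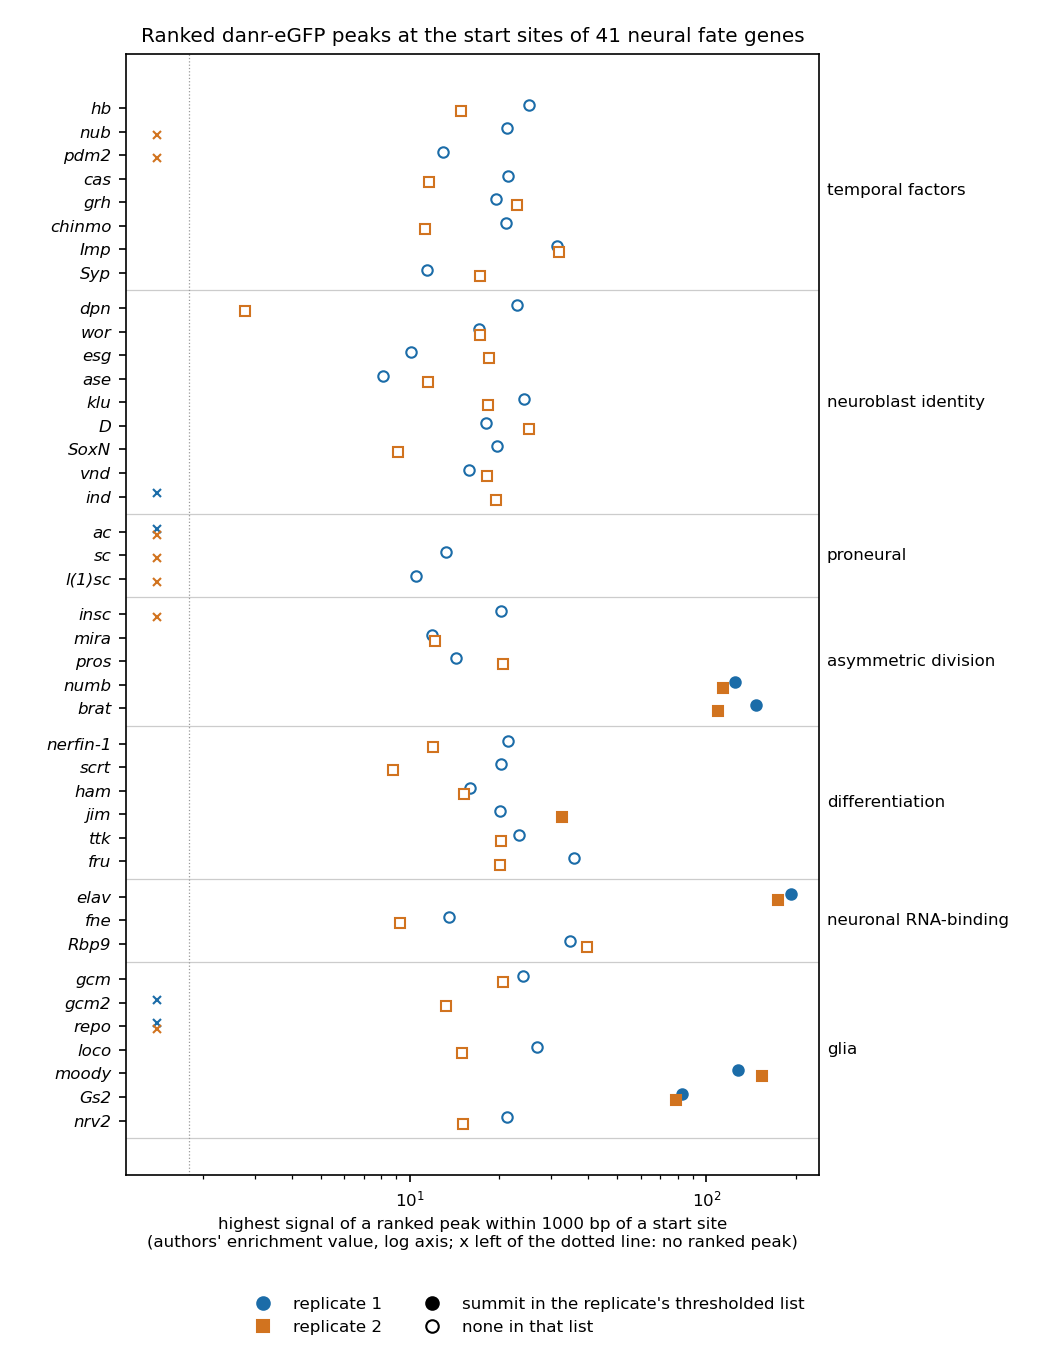
Highest signal (log axis) of a ranked peak within 1000 bp of a start site of each of the 41 genes, in replicate 1 (blue circles) and replicate 2 (orange squares), by gene group. Filled marks have a summit in that replicate's thresholded list. The genes elav, numb, brat, moody and Gs2 stand at 79.3 or more in both replicates, jim is filled in replicate 2 alone, and all other marks are open and below 40.

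Asymmetric division genes fell into strong and weak ones. The gene numb (FBgn0002973), whose protein goes to 1 daughter and blocks Notch there, had a region on 2L from 9449461 to 9449804, 197 bp upstream of its inner start site. The signal was 125 in replicate 1 and 114 in replicate 2, and 236 in the series list, rank 209 of 2653. The gene brat (FBgn0010300), a translational repressor that the daughter inherits, had a region on 2L from 19165093 to 19165256, in an intron and 692 bp upstream of its innermost start site. Its signal was 147 in replicate 1 and 109 in replicate 2, and 257 in the series list, rank 179. Both summits lay far inside the genes, 12.2 kb and 31.4 kb from the outermost start site of numb and brat. The rule by outermost start site therefore counts neither gene.

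The other division genes had weak regions or none. The gene insc, an adaptor that turns the spindle, held 2 regions, and for both another start site was closer. The weaker (46.9), within insc, lay 113 bp from the start of sktl, a nested phosphoinositide kinase gene. Its signal was 12.7 in replicate 1 and 36.2 in replicate 2. The other (69.2) lay 2035 bp upstream of insc and 568 bp from the start of lncRNA:CR44667, with 37.5 in replicate 1 and 34.1 in replicate 2. A second brat region (57.4) in an intron had 18.8 in replicate 1 and 37.2 in replicate 2 and was not in the conservative list. At mira, the adaptor that carries fate determinants, and pros, the homeodomain determinant it carries, no region was in either window. The highest signals near their start sites were 11.9 and 14.3 in replicate 1, and 12.2 and 20.6 in replicate 2.

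Of the differentiation genes, fru and nerfin-1 held regions in the wide window, where 24.2% of all protein-coding genes held one. The genes scrt, ham, jim and ttk held none in the series list. Those of at least 20 kb are fru, ham, jim and ttk, and 48.7% of all protein-coding genes of that length held one. The BTB zinc finger gene fru, known for courtship neurons, is the longest of the 41 at 131 kb and held 3 intronic regions, none within 1000 bp of a start site. The strongest, on 3R from 18508355 to 18508698, lay 1965 bp upstream of a start site and measured 47.1 in replicate 1 and 43.8 in replicate 2. The fru region of series signal 57.5 measured 29.8 in replicate 1 and 27.1 in replicate 2, and that of 52.3 measured 29.7 and 23.8. Both were in neither replicate's own list. The nerfin-1 region (55.8), for a zinc finger factor of young neurons, lay 4541 bp upstream, and the start of mat was closer, at 1673 bp. It had 20.9 in replicate 1 and 35.0 in replicate 2. At jim, a zinc finger gene, replicate 2 alone gave a summit 710 bp from a start site, on 3L from 22835744 to 22836063, with a signal of 32.7 and a score of 1000. Replicate 1 had a signal of 5.05 and a score of 15 there.

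**Figure D3:**
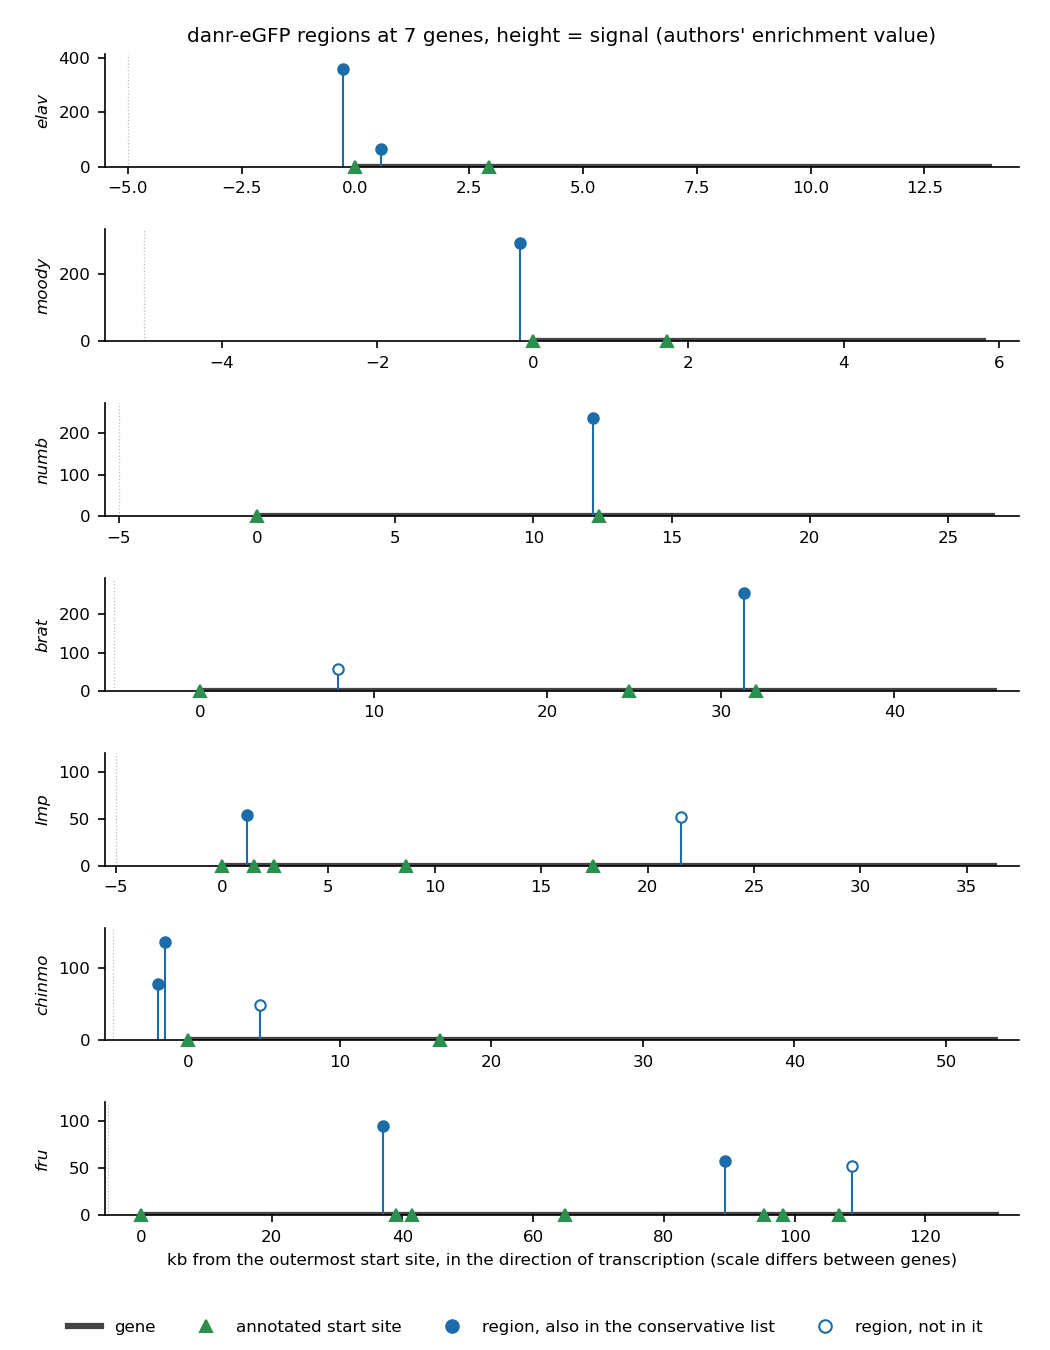
Regions of the series list at elav, moody, numb, brat, Imp, chinmo and fru, by distance from the outermost start site (kb, in the direction of transcription; the dotted line is 5 kb upstream) and signal (authors' enrichment value, vertical axis). Grey bars are genes, green triangles start sites, and filled circles regions that are also in the conservative list. The tallest regions stand beside a start site at elav (361), moody (290), brat (257) and numb (236), and those of fru lie away from its start sites at 94.7 or less.

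The neuronal RNA-binding protein genes held the strongest region of the 41. At elav (FBgn0260400), the general marker of neurons, the region spanned 523390 to 523606 of X, and its summit was 277 bp upstream of the outermost start site. The signal was 193 in replicate 1 (rank 81 of 73075 ranked peaks) and 174 in replicate 2 (rank 106 of 99556), and 361 in the series list, rank 89. The summit also lies within arg, an arginase gene, and the start site it is nearest to is shared with lncRNA:enrr, so position alone assigns the region to no single gene. A second elav region, 568 bp downstream of the start, was much weaker, with 35.4 in replicate 1 and 24.8 in replicate 2. At Rbp9 (FBgn0010263), a paralog, an intronic region 846 bp downstream of a start site had 34.6 in replicate 1 and 39.5 in replicate 2, with scores of 642 and 543. It passed in the series list (76.7) and in the conservative list but in neither replicate's own list. The third paralog, fne, had no region, with highest signals of 13.6 in replicate 1 and 9.28 in replicate 2 near its start sites.

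Of the 7 glia genes, moody, Gs2 and loco held 1 region each in the wide window, where 24.2% of all protein-coding genes held one. All 7 are under 20 kb, and 22.3% of all protein-coding genes under 20 kb held one. At moody (FBgn0025631), a receptor of the blood-brain barrier glia, the region on X from 2050206 to 2050373 had its summit 167 bp upstream of the start site. The signal was 128 in replicate 1 and 155 in replicate 2, and 290 in the series list, rank 135. This summit lies within the neighbouring gene CG4313. At Gs2 (FBgn0001145), a glutamine synthetase, an intronic region on X from 11423244 to 11423587 had its summit 541 bp upstream of the inner start site, with 82.7 in replicate 1 and 79.3 in replicate 2. At loco, a regulator of G-protein signalling, an intronic region 1691 bp downstream of a start site had 27.2 and a score of 31 in replicate 1, against 52.3 and a score of 1000 in replicate 2. The fate genes gcm, gcm2 and repo held none, nor did nrv2, a sodium pump subunit gene. At repo, neither replicate had a ranked peak within 1000 bp of the start site. At gcm the highest signals were 24.0 in replicate 1 and 20.7 in replicate 2.

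Across the lists, 5 genes kept a summit near a start site in each replicate alone: elav, moody, Gs2, numb and brat. Replicate 1 had no others (12.2% of the 41, against 8.81% of all protein-coding genes), and replicate 2 added jim (14.6%, against 9.09%). The conservative list held the same 7 genes as the series list (17.1%, against 11% of all). In the wide window, 8 genes (19.5%) were counted in replicate 1, against 16.7% of all genes, 11 (26.8%) in replicate 2, against 16.4%, and 12 (29.3%) in the conservative list, against 20.1%. Of the 21 regions, 8 were in both replicates' own lists (38.1%, against 40.2% of 2632 regions of the series) and 10 in neither (47.6%, against 25.2%). The conservative list overlapped 15 (71.4%, against 75% of all).

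Regions strong in 1 replicate were mostly strong in the other. Over the 20 regions with a ranked peak in both, the rank correlation of Spearman came to 0.74 and that of Pearson (r, on log2 signals) to 0.86, against 0.59 and 0.68 over 2484 regions of the whole series. These correlations are across regions of the same libraries and are given as a description. Both directions occurred among the weaker regions. The insc region within the gene, the weaker brat region and those of nerfin-1 and loco were lower in replicate 1, and the intronic Imp region and the weaker elav region were lower in replicate 2.

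**Figure D4:**
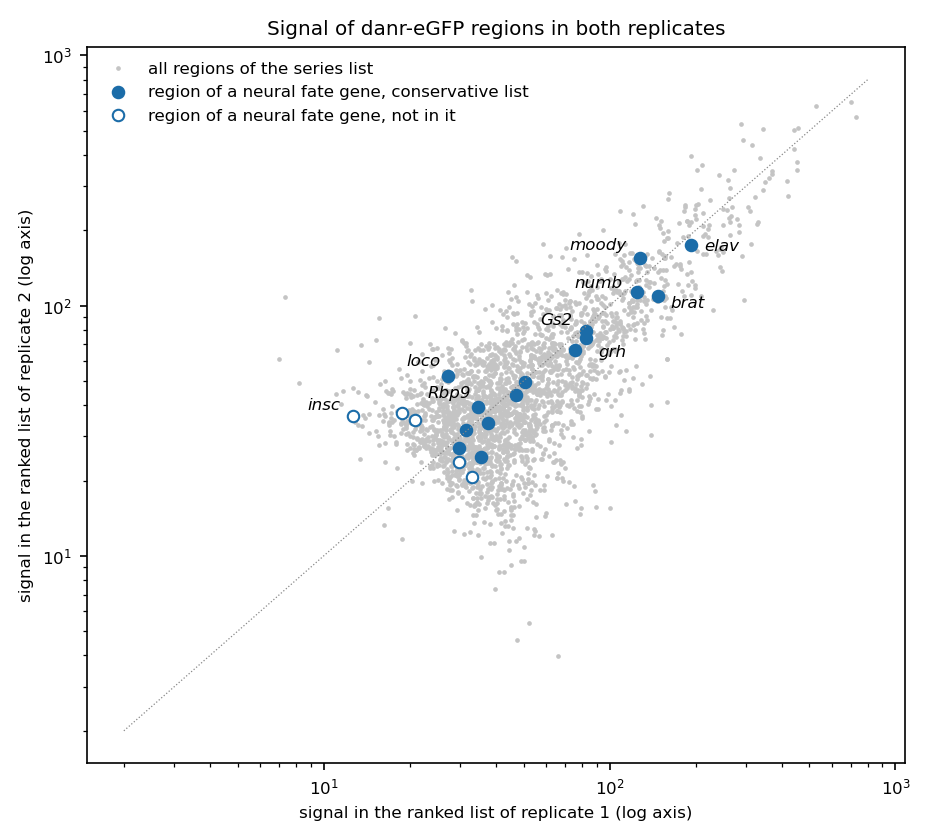
Signal in the ranked list of replicate 1 (horizontal, log axis) against replicate 2 (vertical, log axis) for all regions of the series list (grey) and the regions of the 41 genes (blue, filled where also in the conservative list; the dotted line marks equal values). The moody and numb regions and the stronger region each of elav and brat lie at the strong end in both, with signals of 109 or more. The loco region and the weaker insc region lie above the line.

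In the series list the 21 regions were near all regions in median signal and in A and T content. Their median signal was 76.7 (46.9 to 361), against 83.0 over 2632 regions on the 7 main chromosomes. In the ranked lists the median was 35.4 against 43.8 in replicate 1, and 41.7 against 42.0 in replicate 2. The 8 regions near a start site of these genes ranged from 54.1 to 361 with a median of 200, and the 13 others from 46.9 to 160 with a median of 57.5. The same split was not made over all regions, so it has no background here. Introns held 13 of the 21 summits (61.9%), against 37.3% of all regions, promoters (within 500 bp of any start site) held 5 (23.8%), against 46.5%, and intergenic sequence 3 (14.3%), against 13.5%. The 21 were taken by rule from windows through whole genes, longer at the median than all genes, whereas the 2632 lie anywhere. These shares are therefore not from like windows. In the 101 bases around each summit, A and T together made up 67.1% ± 9.97, against 66.8% ± 9.37 over all regions (mean ± SD, over 21 and 2632 windows). The window of the weaker elav region was the lowest, at 41.6%, and that of the intronic Imp region the highest, at 83.2%.

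Motif counts in the same windows were small, from 0 to 7 of the 21. TATAAA was in 6 of 21 (28.6%), against 23.2% of all regions, the A tract in 7 (33.3%), against 28.5%, TAATTA in 4 (19%), against 9.50%, and ACAAT in 5 (23.8%), against 30.9%. CAGCTG and CATATG were in 1 each (4.76%), against 3% and 4.41%, and TATCGATA and CAGGTG in none, against 0.988% and 2.32%. GAGAG was in 4 (19%), against 9.08%. The conservative list held 16 summits at these genes. There TATAAA and the A tract turned to below all regions, at 18.8% against 24.9% and 12.5% against 28.7%. ACAAT was at 6.25% against 31%, and CATATG was in none, against 4.12%. GAGAG (25% against 8.92%), TAATTA (18.8% against 10.3%) and CAGCTG (6.25% against 2.54%) stayed above all regions. TATCGATA and CAGGTG were again in none. In windows of 150 bp either side, GAGAG was in 15 of 21 (71.4%), against 35.3% of all regions and 37.3% of all intronic ones. The 26 regions at other neural genes had 30.8%. At this width TAATTA was in 5 of the 21 (23.8%), against 21.9% of all regions, and ACAAT in 9 (42.9%), against 61.2%. TATAAA was in 10 (47.6%), against 45.1%, the A tract in 11 (52.4%), against 59.2%, and CAGCTG in 4 (19%), against 15.3%. CATATG was in 2 (9.52%), against 11.7%, and TATCGATA and CAGGTG in none, against 3.57% and 8.59%. The wider window for GAGAG is named here after its values were seen, among 9 motifs and 2 window widths, and the difference was not tested.

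A list of 43 other neural genes, of the same pathways, had 4 genes with a summit near a start site (9.30%), against 13.4% of all genes: par-6 (113) and dlg1 (103), polarity genes of dividing neuroblasts, pnt (58.0), an ETS factor of glia, and danr itself (50.5), which is also the tagged gene and whose region was in neither replicate's own list nor the conservative one. Its paralog dan had none near a start site and 1 in the wide window. None of the 7 other proneural and helix-loop-helix genes, ato, amos, cato, tap, da, emc and hry, had a summit in either window. All 7 are under 20 kb, where 22.3% of all protein-coding genes held one in the wide window. From 5 kb upstream to the gene end, 13 of the 43 (30.2%) held one, against 24.2% of all protein-coding genes. Among those of at least 20 kb it was 6 of 15 (40%), against 48.7%, and among shorter ones 7 of 28 (25%), against 22.3%. With the outermost start site alone 3 of the 43 were counted (6.98%), beside the 7.32% of the 41, and their windows held 24.0 summits per Mb, beside 19.8. No difference between the lists was tested.

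A looser score limit of 540, an IDR of 0.05, brought in peaks at more of the 41 genes. Near a start site it gave 10 genes (24.4%), against 17.7% of all protein-coding genes, by adding klu, chinmo and jim. In the wide window it gave 21 (51.2%), against 32.6%, with ase, klu, SoxN, pros, jim, ttk, fne and nrv2 as the 8 new ones. The 16 added peaks had signals in the ranked list behind the series list from 19.6 to 57.1, and those at ase (44.4), SoxN (42.3) and fne (49.0 and 37.8) lay between 1919 and 8420 bp from a start site. Under this limit the windows held 34.9 summits per Mb, against 34.2 over all protein-coding genes.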

How the data were processed

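Per the deposited file descriptions, 8 lists of peaks on dm6 were used: a ranked and a thresholded list for each replicate, and 2 ranked, a thresholded and a conservative list made from both. Which peak caller and aligner made them is not given in the sources used here. As deposited, signal is an enrichment value that the authors gave each peak, on a scale not stated, and was used only within 1 list or to set replicates side by side. The deposited score is the authors' transform of the IDR, and the deposited −log10 of the IDR in the ranked lists was used only to check it. Read depth is unknown from these lists, so no interval from reads was computed.

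Rows overlapping by at least 1 bp were merged, and the row of highest signal gave the summit and signal, which left 2653 regions in the series list, 2632 of them on 7 chromosomes. Ensembl release 115, on the same assembly, gave genes and start sites, without transposable elements. Values of a replicate at a region are those of its strongest overlapping ranked peak. The analysis used Python 3.11.15, numpy 2.4.6 and pandas 2.3.3, and the gene counts were tested on simulated summits planted at known distances. The 1 group of 2 replicates allows no test between samples, so lists are described by counts beside all protein-coding genes. The genes, the other lists, the motifs and the alternatives were chosen with earlier results of these data known. Ranked lists include peaks far below the limit. Every gene of the 41 with a summit of the series list in either window is named, as are other neural genes with one near a start site.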

Additional observations from a re-analysis of the deposited data

How the results depend on the processing

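The count of 7 genes with a summit near a start site fell to 4 within 500 bp and to 3 with the outermost start site alone. It rose to 10 within 2000 bp, against 17.1% of all protein-coding genes, and ran from 5 to 6 in the lists of 1 replicate each. The 13 genes of the wide window became 8 to 11 with 1 replicate and 21 at a score of at least 540. Where any overlap of a region with that window was counted, it was 14 genes, against 24.9% of all protein-coding genes. The density was then 20.7 per Mb, against 22.7. Summits per Mb, 19.8 in the series list, were 9.43 to 10.4 with 1 replicate, 34.9 at a score of at least 540 and 8.48 among regions of at least the median signal, against 11.5 over all protein-coding genes. At that signal the other neural genes near a start site fell to 2 of 43, against 7.87% of all genes. The median signal of 76.7 was 35.4 in the ranked list of replicate 1, against 43.8 over all regions. In that of replicate 2 it was 41.7, against 42.0. These lists are on another scale. The rank correlation of the replicate signals was 0.86 over the 15 regions of the series list that were also in the conservative list. Of 192 values of single genes and motifs under the alternatives, 61 moved beyond 1.5 times or their spread and 131 did not. Assigning summits by the nearest start site and leaving out fru were added after the data were seen, and both kept the count or density within 1.5 times. No paired analysis was possible because there is 1 group of samples. Unknown depth limits what the weak peaks of these genes can show.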
